A study of Oryctolagus cuniculus with 6 samples.

Results

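A set of 10 genes of Schwann cell identity and glial adhesion were followed in injured rabbit facial nerve, out of 17396 genes counted. They were taken by gene symbol: S100B, CDH19, FABP7 and GFAP as glial identity genes, CDH2, L1CAM, NCAM1, CADM2 and CADM4 as adhesion molecules of the cadherin and immunoglobulin families, and SLITRK3 as a leucine-rich adhesion molecule. The proteins of the myelin sheath were left out of this set. All 10 members were found in the files, had counts in every library and were among the 14003 genes that passed the filter on low counts, SLITRK3 through the FNI libraries alone.

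The libraries came from wild type male Japanese white rabbits aged 3 to 4 months, with 3 libraries of FNI and 3 of FNI+I-125. FNI stands for facial nerve injury. In both groups the main trunk of the facial nerve was cut, and the nerve was harvested on day 14. The FNI+I-125 group also received a radioactive iodine seed of 0.8 mCi beside the nerve when the skin was closed, so no library here holds irradiation without injury. The sham group was not analysed here. The comparison of the 2 groups asks which transcripts differ in cut nerve when a seed is present.

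Schwann cells are the glia of peripheral nerve. When an axon is cut, they lose their myelin program, divide and take up a repair state in which they resemble immature and non-myelinating Schwann cells, with glial filaments and cell adhesion molecules such as L1 and NCAM on their surface. Cadherins and immunoglobulin adhesion molecules hold these cells to one another and to regrowing axons. Nectin-like molecules of the CADM family later line up the Schwann cell membrane with the axon along the internode.

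Total counts ran from 16031151 to 16798012 per library, so depth differed little between the groups. Values are given as CPM, counts scaled to the library size after TMM normalization, which sets library sizes so that most genes do not differ between libraries. Levels are listed for replicates 1, 2 and 3 in that order, FNI first and FNI+I-125 after the word against. CPM was not divided by gene length, so levels were compared between libraries and not between genes. The Schwann cell markers SOX10, a transcription factor of the lineage, and ERBB3, a neuregulin receptor, were present in every library. SOX10 stood at 275, 276 and 229 CPM against 54.4, 133 and 222 CPM. FNI+I-125 replicate 1 was the lowest library for both markers. Transcripts of myelin sheath proteins stood apart in FNI replicate 3, where the 12 genes of a myelin list summed to 13922 CPM, while FNI replicates 1 and 2 had 2400.2 and 1188 CPM. The irradiated libraries had 371, 1226 and 474 CPM. The nerve was sequenced as bulk tissue, and fewer Schwann cells and less RNA per Schwann cell cannot be told apart in such data.

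Of the 10 members, 9 had a negative log2 fold change, FNI+I-125 over FNI, and the median was -1.30 where it was 0.01 over all genes tested. SLITRK3, CADM4 and S100B lay lower in every FNI+I-125 library than in every FNI library, with log2 fold changes of -2.70, -3.06 and -2.54. CADM2, FABP7 and GFAP had log2 fold changes of -1.50, -1.36 and -1.23 with overlapping groups. CDH19, L1CAM, NCAM1 and CDH2 had the values closest to 0, at -0.59, -0.40, -0.26 and 0.35, and their groups overlapped.

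**Figure D1:**
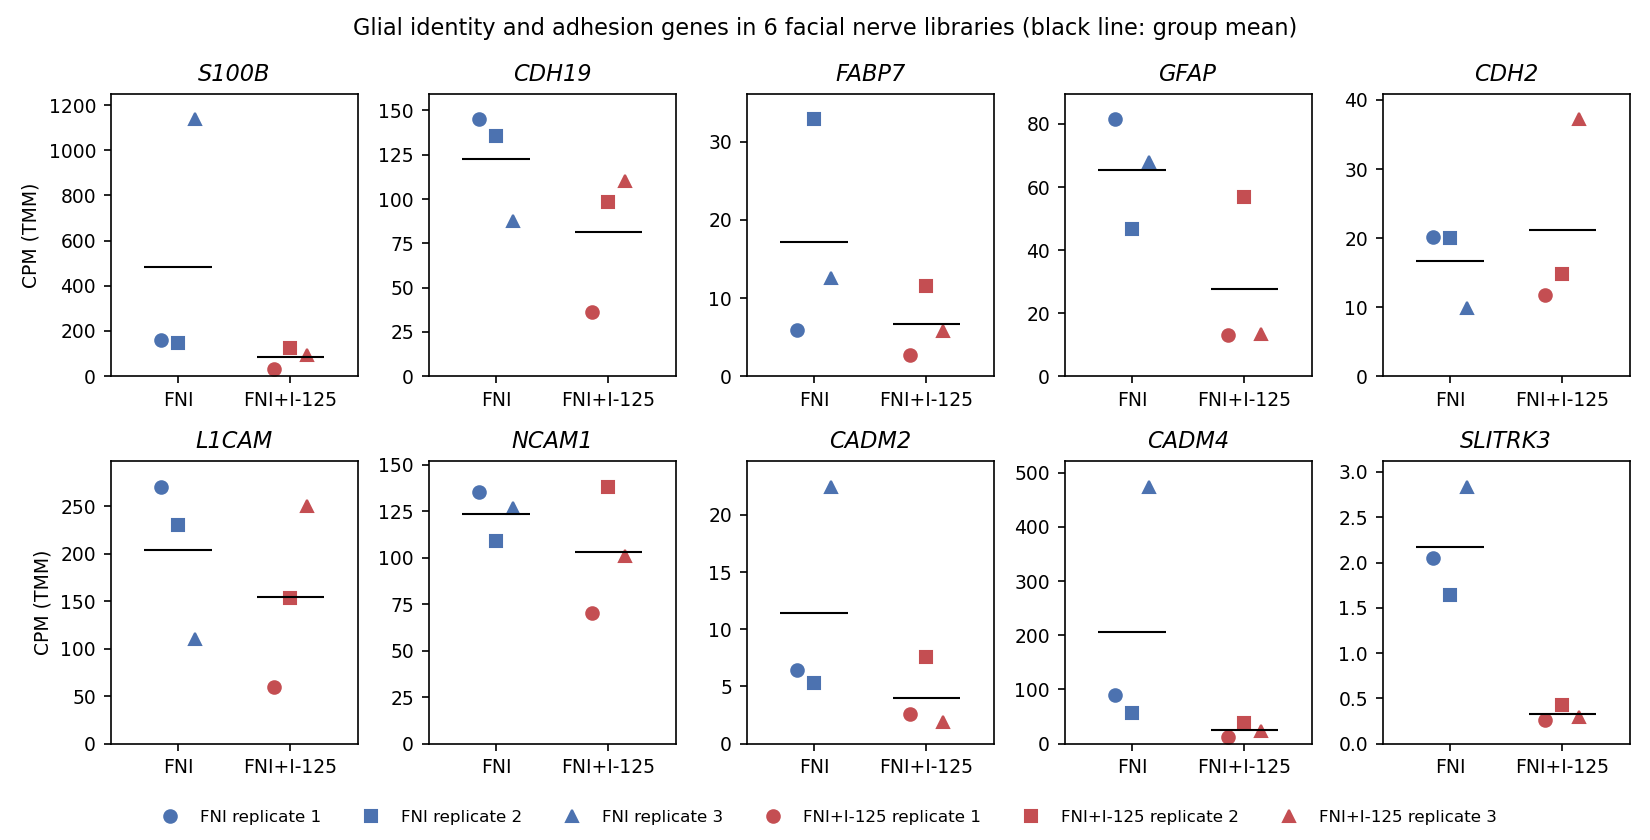
CPM after TMM normalization (y axes, linear, each starting at 0) of the 10 members in the 3 FNI and 3 FNI+I-125 libraries; each point is 1 library, its shape gives the replicate number and the black line is the group mean. S100B and CADM4 have 1 high FNI library, replicate 3, at 1137 and 474 CPM. The SLITRK3 groups do not overlap. Its FNI+I-125 libraries hold 4, 7 and 5 counts, too few to judge how tight that group is.

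With edgeR's quasi-likelihood test, 0 of the 10 members and 0 of the 14003 genes passed an adjusted p of 0.05 with a log2 fold change of 1.5 or more in either direction, a background of 0.00%. At an unadjusted p under 0.05, 3 of the 10 members passed, all 3 lower after irradiation. SLITRK3, among them, had under 10 counts in each FNI+I-125 library, and with at least 10 counts asked of every library the count was 2. Over all genes, 2375 passed in either direction (17.0%), of which 1082 were lower (7.73%). The groups did not overlap for 3 of 10 members, again all lower, where 12.3% of all genes were lower without overlap. SLITRK3, which passed the filter through the FNI libraries alone, is among these 3 and among the DESeq2 calls that follow. The members were chosen with earlier results of these data known, so no contrast with the shares over all genes is read. DESeq2's Wald test, run on the same 14003 genes, called 399 genes (2.85%) at an adjusted p under 0.05 with the same fold change, and SLITRK3, CADM4 and S100B were among them. Limma-voom called 0 genes, with 2162 at the unadjusted p. The count of 3 members at the unadjusted p became 1, SLITRK3, without FNI+I-125 replicate 1 and also without FNI+I-125 replicate 3. Without FNI+I-125 replicate 2 it became 5, with GFAP, NCAM1 and CADM2 added and S100B lost.

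**Figure D2:**
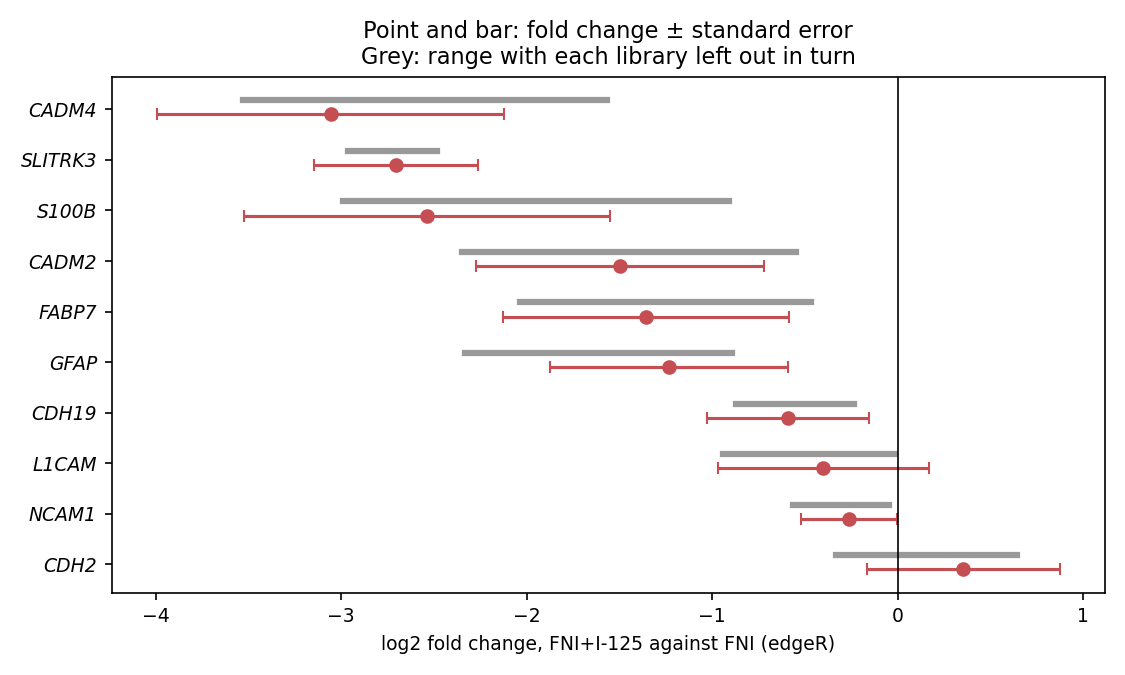
The log2 fold change of each member, FNI+I-125 against FNI, from edgeR (x axis) with its standard error as a bar; the grey band gives the lowest and highest fold change with each of the 6 libraries left out in turn. SLITRK3 stayed between -2.96 and -2.48, S100B ran from -2.99 to -0.91, and CDH2 crossed 0.

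SLITRK3 is a transmembrane protein with leucine-rich repeats that organizes synaptic contacts in the brain by binding receptor phosphatases. It had 35, 26 and 48 counts against 4, 7 and 5 counts. It passed the minimum of 10 counts only through the FNI group, where it was high, so its passing was not independent of its difference, and it was not tested where at least 10 counts were asked of every library. In CPM this was 2.05, 1.64 and 2.84 against 0.26, 0.43 and 0.29. The lowest FNI library lay well above the highest FNI+I-125 library. The group values were 2.17 ± 0.61 CPM and 0.33 ± 0.09 CPM (SD, n = 3 each). SLITRK3 differed by -2.70 on the log2 scale with a standard error of 0.44, and the unadjusted p of the edgeR fit was 8.7e-04 (adjusted p = 0.280). A design of 3 against 3 libraries cannot give less than 0.1 in an exact permutation test, two-sided, and SLITRK3 reached that value. With DESeq2 the adjusted p of SLITRK3 was 0.00123, and it was 0.0188 with DESeq2 when FNI replicate 3 was left out. The highest SLITRK3 level was 1.63 times the lowest among irradiated libraries, the smallest such ratio of the 10 members, and 1.73 times the lowest among FNI libraries, where NCAM1 and CDH19 varied less at 1.24 and 1.66 times. The counts behind it are few. The exact 95% Poisson interval, for counting error only, runs from 1.09 to 10.2 counts for the 4 counts in FNI+I-125 replicate 1. For the 7 counts in FNI+I-125 replicate 2, the highest of that group, it runs from 2.81 to 14.4. For the 26 counts in FNI replicate 2, the lowest of its group, it runs from 17.0 to 38.1.

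CADM4, also called nectin-like 4, is the adhesion molecule that Schwann cells place on the internodal membrane, where it binds its axonal partner CADM3. It stood at 89.7, 55.8 and 474 CPM against 12.4, 37.9 and 24.1 CPM. Every FNI library lay above every FNI+I-125 library, and FNI replicate 3 was several times above the other FNI libraries. The group values were 207 ± 232 CPM and 24.8 ± 12.7 CPM (SD, n = 3 each). The fit gave -3.06 on the log2 scale with a standard error of 0.94. Its unadjusted p was 0.0171 in the edgeR fit (adjusted p = 0.280), and the exact permutation test gave p = 0.1. CADM4 went to -1.57, with an unadjusted p of 0.0246, when FNI replicate 3 was left out. That p was 0.0572 without FNI+I-125 replicate 1 and 0.0512 without FNI+I-125 replicate 3. DESeq2 gave CADM4 an adjusted p of 0.00813, and 0.0558 when FNI replicate 3 was left out. The myelin sums given above were highest in FNI replicate 3 and, among irradiated libraries, in replicate 2, as was CADM4, and their part in the difference was not tested.

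S100B is a small calcium-binding protein and the routine marker of Schwann cells, although fat cells, cartilage and pigment cells make it too. It stood at 161, 148 and 1137 CPM against 32.2, 125 and 91.9 CPM, from 2756, 2343 and 19243 counts against 492, 2057 and 1565 counts. The groups did not overlap, but FNI replicate 2 and FNI+I-125 replicate 2 were close, and FNI replicate 3 held most of the counts. The group values were 482 ± 567 CPM and 83.1 ± 47.1 CPM (SD, n = 3 each). The fit gave -2.54 on the log2 scale with a standard error of 0.99, an unadjusted p of 0.0422 and an adjusted p of 0.286 in the edgeR fit, and the exact permutation test gave p = 0.1. S100B went to -0.91 with an unadjusted p of 0.158 when FNI replicate 3 was left out. The unadjusted p was 0.111, 0.0621 and 0.0913 without FNI+I-125 replicates 1, 2 and 3. DESeq2 gave an adjusted p of 0.0468, which became 0.442 without FNI replicate 3. Like S100B, CADM4 and SLITRK3, summed fat cell markers were lower in every FNI+I-125 library and highest in FNI replicate 3. The 6 genes analysed from a list of 9 summed to 1618, 2596 and 4336 CPM against 1027, 1372 and 1497 CPM. Within the groups the order differed. The sum was lowest of its group in FNI replicate 1 and highest of its group in FNI+I-125 replicate 3. For S100B, CADM4 and SLITRK3 these were FNI replicate 2 and FNI+I-125 replicate 2. The part of fat cells in these differences was not tested. Among the 6, only ADIPOQ, the adipocyte hormone adiponectin, named after its value was seen, was lower without overlap. It had 1124, 1122 and 1840.5 CPM against 755, 772 and 781 CPM. LPL and FABP4 of the same list, named in the same way, had log2 fold changes of -1.56 and -1.35 with overlapping groups. Pearson's r of log2 CPM with ADIPOQ over the 6 libraries was 0.96 for CADM4, 0.92 for SLITRK3 and 0.91 for S100B. ADIPOQ and these 3 members were all lower without overlap, so the coefficients hold that shared group difference, and no test was made of them. Of the 6 markers, r was computed for ADIPOQ alone.

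CDH19, a cadherin that marks Schwann cell precursors and is kept in the lineage, showed another pattern. It stood at 145, 136 and 87.6 CPM against 36.4, 98.1 and 110 CPM. FNI replicate 3 was the lowest of its group for CDH19, not the highest, and it lay below FNI+I-125 replicates 2 and 3. The group values were 123 ± 30.8 CPM and 81.6 ± 39.6 CPM (SD, n = 3 each). CDH19 differed by -0.59 on the log2 scale with a standard error of 0.44 (adjusted p = 0.480 in the edgeR fit), and -0.24 without FNI+I-125 replicate 1. In an exact permutation test, CDH19 had p = 0.3.

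FABP7, the brain-type fatty acid binding protein of immature glia, stood at 5.86, 32.9 and 12.6 CPM against 2.75, 11.5 and 5.75 CPM. FNI replicate 2 was the high library, and the lowest FNI library lay below FNI+I-125 replicate 2. Its means were 17.1 ± 14.1 CPM and 6.67 ± 4.45 CPM (SD, n = 3 each). FABP7 differed by -1.36 on the log2 scale, with a standard error of 0.77 (adjusted p = 0.375 in the edgeR fit), or -0.47 without FNI replicate 2. GFAP, the glial filament protein of non-myelinating and denervated Schwann cells, stood at 81.5, 46.7 and 67.9 CPM against 13.01, 57.0 and 13.4 CPM. FNI+I-125 replicates 1 and 3 were low for GFAP and replicate 2 fell within the FNI range. The GFAP means were 65.4 ± 17.6 CPM and 27.8 ± 25.3 CPM (SD, n = 3 each). GFAP differed by -1.23 on the log2 scale with a standard error of 0.64 (adjusted p = 0.344), and by -2.33 without FNI+I-125 replicate 2. The exact permutation test gave p = 0.2 for FABP7 and for GFAP.

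CDH2, or N-cadherin, joins Schwann cells to each other and to axons. It was the member with a positive log2 fold change, 0.35 with a standard error of 0.52 (adjusted p = 0.725 in the edgeR fit). CDH2 stood at 20.1, 20.0 and 9.81 CPM against 11.8, 14.7 and 37.2 CPM. FNI replicate 3 was the lowest and FNI+I-125 replicate 3 the highest library, and the groups overlapped (exact permutation test, p = 0.8). The CDH2 means were 16.6 ± 5.90 CPM and 21.2 ± 13.9 CPM (SD, n = 3 each). Without FNI+I-125 replicate 3 the sign turned, to -0.33, and the value was 0.06 without FNI replicate 3 and 0.64 without FNI+I-125 replicate 1.

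L1CAM, the founding member of the L1 family, is carried by axons and by non-myelinating and repair Schwann cells. It stood at 271, 230 and 111 CPM against 60.1, 153 and 250 CPM. FNI+I-125 replicate 3 lay between FNI replicates 1 and 2, and FNI replicate 3 was low. The L1CAM means were 204 ± 83.2 CPM and 154 ± 94.9 CPM (SD, n = 3 each). L1CAM differed by -0.40 on the log2 scale with a standard error of 0.57 (adjusted p = 0.715 in the edgeR fit), and by -0.02 without FNI+I-125 replicate 1 or -0.94 without FNI+I-125 replicate 3. NCAM1, the neural cell adhesion molecule of the same cells and of denervated muscle, stood at 136, 109 and 126 CPM against 70.1, 138 and 101 CPM. The NCAM1 means were 124 ± 13.5 CPM and 103 ± 34.1 CPM (SD, n = 3 each), with overlap. Its log2 fold change was -0.26 with a standard error of 0.26 (adjusted p = 0.589), with -0.05 without FNI+I-125 replicate 1 and -0.56 without FNI+I-125 replicate 2, where the unadjusted p was 0.0444. In the exact permutation test, L1CAM had p = 0.6 and NCAM1 had p = 0.5. Skeletal muscle markers were high in FNI+I-125 replicates 1 and 2, where the 12 genes analysed of 17 summed to 4844 and 4078 CPM, while FNI+I-125 replicate 3 had 17.6 CPM and the FNI libraries 24.3 to 79.1 CPM. NCAM1 was lowest and highest in the 2 libraries with high muscle signal. The part of muscle RNA in the NCAM1 values was not tested.

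CADM2, a nectin-like molecule of axons and glia, stood at 6.44, 5.29 and 22.5 CPM against 2.61, 7.55 and 1.94 CPM. As with CADM4, FNI replicate 3 was high, but FNI+I-125 replicate 2 lay above FNI replicates 1 and 2. The CADM2 means were 11.4 ± 9.60 CPM and 4.03 ± 3.06 CPM (SD, n = 3 each). CADM2 differed by -1.50 on the log2 scale with a standard error of 0.78 (adjusted p = 0.344 in the edgeR fit), or -0.55 without FNI replicate 3. It was -2.35, with an unadjusted p of 0.0332, without FNI+I-125 replicate 2. The exact permutation test gave p = 0.3.

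**Figure D3:**
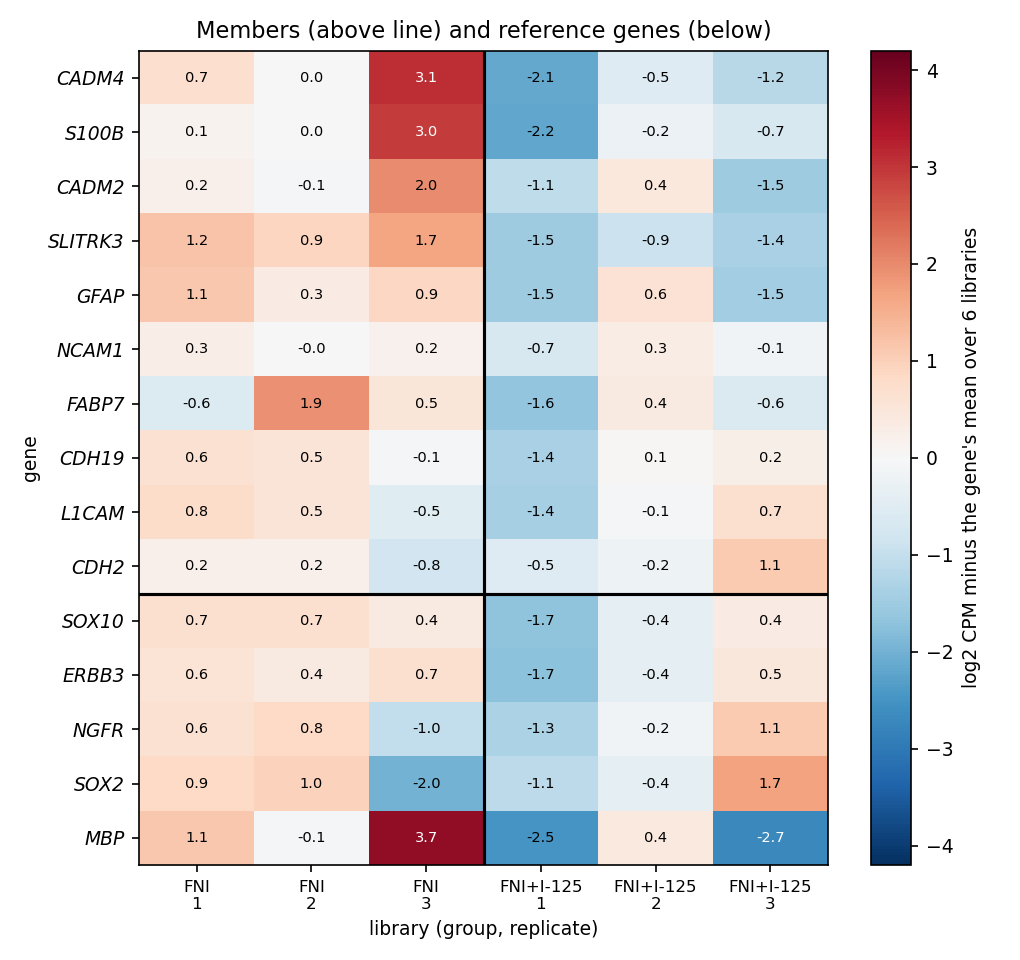
Log2 CPM of each gene minus its own mean over the 6 libraries (colour and printed value), with libraries in columns and genes in rows; members are above the line and reference genes for Schwann cells (SOX10, ERBB3, NGFR, SOX2) and myelin (MBP) below it. S100B, CADM4 and CADM2 peak in FNI replicate 3 together with MBP, whereas L1CAM and CDH2 are low in that library and high in FNI+I-125 replicate 3, as are NGFR and SOX2.

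The members differed in pattern when the libraries of a group were compared with each other. In FNI replicate 3, S100B was 7.36 times, CADM4 6.51 times and CADM2 3.83 times the mean of FNI replicates 1 and 2. In the same library CDH19 was 0.62 times, CDH2 0.49 times and L1CAM 0.44 times that mean. GFAP and NCAM1 were near it, at 1.06 and 1.03 times. SLITRK3 was 1.54 times and FABP7 0.65 times that mean. Across the 6 libraries, Pearson's r of log2 CPM with MBP, the myelin basic protein, was 0.98 for CADM2, 0.95 for CADM4, 0.91 for S100B, 0.88 for GFAP and 0.86 for SLITRK3. The same coefficient was 0.05 for L1CAM, 0.35 for CDH19 and -0.55 for CDH2, with NCAM1 at 0.72 and FABP7 at 0.48 in between. With NGFR, the neurotrophin receptor of repair Schwann cells, it was 0.95 for L1CAM, 0.90 for CDH2 and 0.82 for CDH19, against -0.09 for S100B. With SOX10 it was 0.94 for CDH19, 0.85 for L1CAM, 0.71 for NCAM1 and 0.69 for SLITRK3. It was 0.63 for FABP7 and S100B, 0.62 for CADM4, 0.58 for GFAP, 0.44 for CDH2 and 0.35 for CADM2. These coefficients describe 6 libraries that share the group difference, and no test was made of them. NGFR and MBP are named after their values were seen. NGFR stood at 436, 500 and 138 CPM against 111, 253 and 604 CPM.

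FNI+I-125 replicate 1 was the lowest of all 6 libraries for 8 of the 10 members, with CDH2 and CADM2 as the exceptions. In that library S100B was 0.30 times, CDH19 0.35 times, L1CAM 0.30 times and NCAM1 0.59 times the mean of FNI+I-125 replicates 2 and 3. It was also the library with the highest sum of 8 fibroblast genes, 189886 CPM, where the other libraries held 69302 to 138509 CPM. Its sum of skeletal muscle markers, 4844 CPM, was the highest too. FNI replicate 3 was the highest library for 4 members and held the lowest fibroblast sum. The part of fibroblast or muscle RNA in the members' values was not tested. When FNI replicate 3 and FNI+I-125 replicate 1 were both left out, an alternative chosen after seeing the data, the log2 fold change was -2.35 for SLITRK3, -1.24 for CADM4, -0.52 for S100B and -0.45 for CDH19. It was -1.17 for FABP7, -0.87 for GFAP, -0.33 for L1CAM, -0.31 for CADM2, -0.05 for NCAM1 and 0.35 for CDH2. In that edgeR fit SLITRK3, CADM4 and CDH19 (0.0142) had an unadjusted p under 0.05, and S100B (0.0594) did not.

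The wider families of the members were described with lists written from general knowledge, but chosen with earlier results of these data known. The lists leave out the members themselves. Their counts at the unadjusted p stand beside 17.0% of all genes in either direction and 7.73% lower, and nothing particular to a list is read from them. Among 19 genes of the Schwann and neural crest lineage, 16 had a negative log2 fold change, with a median of -0.74, and 2 passed an unadjusted p of 0.05, both lower. These were GPM6B, a proteolipid of glial membranes (log2 fold change -1.62, standard error 0.46), and PMP2, a lipid-binding protein of peripheral myelin (-4.80, standard error 1.57). SOX10 and ERBB3 themselves had log2 fold changes of -0.93 and -0.84, not past that threshold, although both passed it without FNI+I-125 replicate 3 (-1.47 and -1.48). PMP2 was at -2.12 without FNI replicate 3, and its p was then over 0.05, as it was without FNI+I-125 replicate 1 or 3. In the myelin sheath list all 12 genes had a negative value, with a median of -3.29, and 8 passed, among them the gap junction protein GJB1 (-3.08) and the myelin lipid enzymes UGT8 (-3.46) and FA2H (-4.04). Without FNI replicate 3 these 3 values were -2.21, -1.94 and -1.86, and FA2H no longer passed. Neither UGT8 nor FA2H passed without FNI+I-125 replicate 1 or 3, and FA2H did not pass with limma-voom.

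Of 13 tested relatives of S100B, FABP7 and GFAP, 8 had a positive value and the median was 0.11. The 2 that passed were both higher: S100A11, a widely made S100 protein, at 382, 317 and 247 CPM against 660, 500 and 506 CPM (log2 fold change 0.82, standard error 0.22), and DES, the muscle filament desmin (2.34, standard error 0.90), which followed the muscle markers with 437 and 513 CPM in FNI+I-125 replicates 1 and 2 and 35.9 CPM in replicate 3. DES kept its p under 0.05 in only 1 of the 6 fits that left out a library, the one without FNI+I-125 replicate 3 (2.87), and it missed the threshold with limma-voom. VIM, the filament protein vimentin of mesenchymal and glial cells, was named after its value was seen and had a log2 fold change of -0.05.

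Among 17 classical cadherins and catenins tested, 13 had a negative value with a median of -0.42, and 2 passed, both lower. CTNND2, a neural catenin, had a log2 fold change of -1.39 (standard error 0.48), and CDH18, a neural cadherin, had -2.08 (standard error 0.76), or -1.30 without FNI replicate 3. CDH18, with 24, 24 and 79 counts against 5, 18 and 6 counts, was not tested where at least 10 counts were asked of every library. CTNND2 had -0.91 without FNI replicate 1. CTNND2 also missed the threshold without any one of the FNI+I-125 libraries, and CDH18 without FNI replicate 3 or FNI+I-125 replicate 1 or 3. In the list of L1 and NCAM relatives and their partners, 14 of 19 genes tested had a negative value, with a median of -0.95. There were 9 that passed as lower and 1 as higher, the ankyrin ANK1, named after its value was seen, at 1.46, 1.32 and 3.66 CPM against 22.9, 18.5 and 2.41 CPM, so that its high libraries were those with high muscle markers. Among the 9 was CNTN6, named after its value was seen, with 18, 12 and 23 counts against 3, 4 and 7 counts. CNTN6 passed the filter on low counts through the FNI libraries alone, so its passing was not independent of its difference. NRCAM, an L1 family molecule of nodes of Ranvier, stood at 14.1, 10.5 and 21.9 CPM against 2.75, 5.66 and 4.29 CPM (log2 fold change -1.87, standard error 0.39). CNTN1, a contactin of axons and glia, stood at 132, 107 and 206 CPM against 74.8, 62.3 and 58.5 CPM (-1.19, standard error 0.27). CHL1, the close homolog of L1, stood at 81.8, 82.8 and 76.6 CPM against 23.5, 49.4 and 43.0 CPM (-1.06, standard error 0.28). For each of these 3 genes the groups did not overlap, where 12.3% of all genes were lower without overlap. They were named for the smallest p of the list, so no contrast with L1CAM and NCAM1 is read from this.

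**Figure D4:**
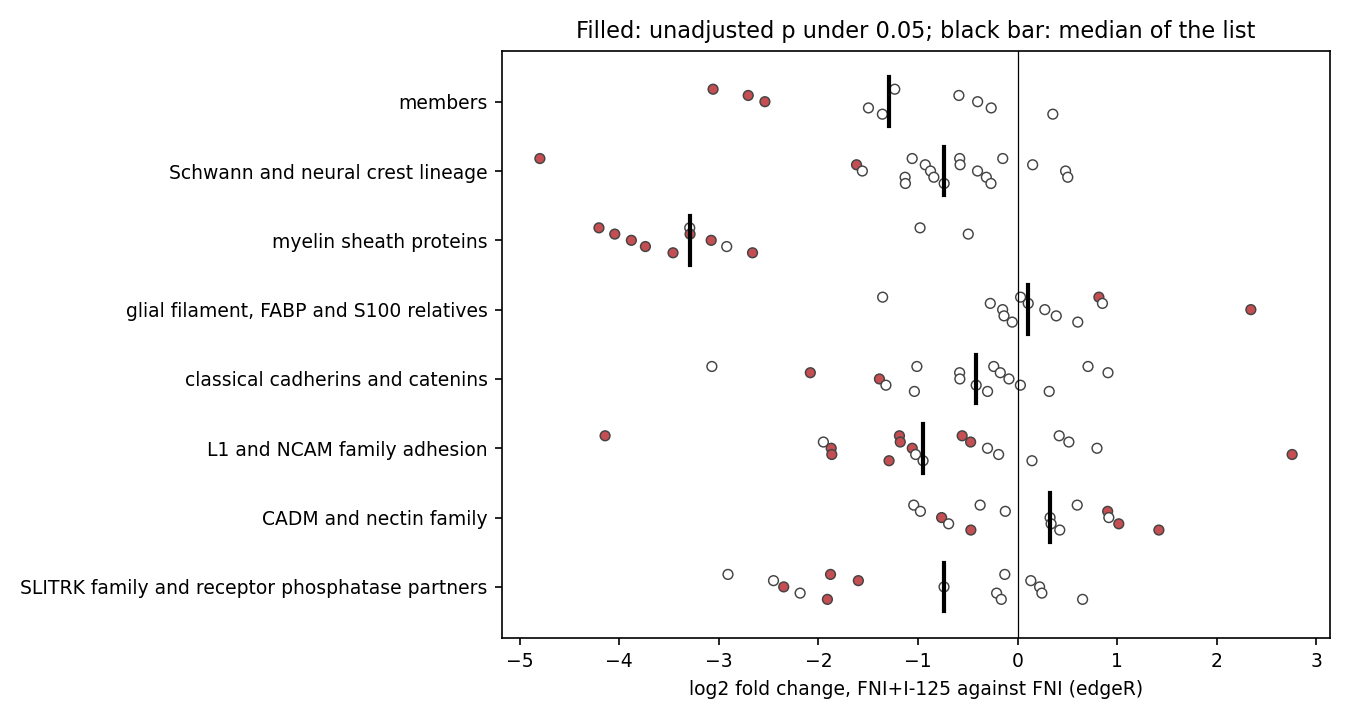
Log2 fold change, FNI+I-125 against FNI, from edgeR (x axis) for every tested gene of the members and of 7 related lists (y axis); each point is 1 gene, filled at an unadjusted p under 0.05, and the black bar is the median of the list. The medians run from -3.29 for myelin sheath proteins to 0.33 for the CADM and nectin list, with the members at -1.30. The related lists leave the members out, so CADM2 and CADM4 count among the members only.

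The CADM and nectin list, which holds scaffold partners but not the members CADM2 and CADM4, was mixed. Of 15 genes tested, 8 had a positive value with a median of 0.33, 3 passed as higher and 2 as lower. PVR, the poliovirus receptor, stood at 8.78, 10.6 and 6.56 CPM against 33.6, 20.4 and 15.4 CPM (log2 fold change 1.42, standard error 0.35). MPP1, a membrane scaffold protein, had 1.02 (standard error 0.27) and EPB41L3, a protein 4.1 that binds CADM tails, had 0.90 (standard error 0.26). The lower ones, named after their values were seen, were the protein 4.1 genes EPB41L2 (-0.76) and EPB41L1 (-0.47). CADM3, the axonal partner of CADM4, was named after its value was seen and had 204, 138 and 414 CPM against 91.2, 175 and 101 CPM, with overlap. CADM1, chosen in the same way, had 65.8, 85.0 and 16.9 CPM against 34.1, 100 and 120 CPM, so its low library was FNI replicate 3, where CADM4 was highest. Among 15 tested genes of the SLITRK family and its phosphatase partners, 11 had a negative value with a median of -0.74, and 4 passed, all lower. LRRC4B, a leucine-rich ligand of receptor phosphatases, had a log2 fold change of -1.88 (standard error 0.51). SLITRK2, a relative of SLITRK3, stood at 7.85, 4.60 and 24.9 CPM against 2.81, 3.04 and 1.47 CPM (-2.35, standard error 0.71), or -1.37 without FNI replicate 3, and its p was 0.0655 with limma-voom. NTRK3, a neurotrophin receptor that also binds receptor phosphatases, had -1.91 (standard error 0.68), or -1.38 without FNI replicate 3, and missed the threshold there and without FNI+I-125 replicate 1 or 3. The other one was SLITRK5 (-1.60), named after its value was seen.

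Markers of the other cells in the tissue were summed in each library. Macrophage markers were higher in all FNI+I-125 libraries, with 7 genes at 200 to 787 CPM against 1034 to 1521 CPM. Perineurial markers, 5 of 6 analysed, ran from 819 to 2952 CPM against 387 to 970 CPM, highest in FNI replicate 3. Endothelial markers ran from 2169 to 2702 CPM against 1655 to 2768 CPM. Salivary gland markers reached 49263 CPM in FNI replicate 2 and 693 to 3409 CPM elsewhere. T and NK cell markers stood at 1.48 to 13.6 CPM against 9.63 to 45.4 CPM. Cartilage markers stood at 71.4 to 87.0 CPM against 42.1 to 145 CPM, and melanocyte markers at 28.7 to 57.2 CPM against 42.6 to 92.5 CPM. Neuronal markers summed to at most 28.9 CPM in any library, and 2 of 10 passed the filter. The part of these cells in the members' differences was not tested.

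By Pearson's r of log2 CPM over the 6 libraries, the genes most like S100B were SYN3, AOC3 and ZBTB47, with r of 0.998 to 1.00. Those most like NCAM1 were ERAL1, PNCK and C6H16orf62, with r of 0.985 to 0.988. For L1CAM they were SLFN14, EEF1A1 and TRPT1, with r of 0.976 to 0.984. For SLITRK3 they were NDST1, SLC9C2 and CCDC12, with r of 0.992 to 0.995. With 6 points and 14003 genes such values are a description of shape alone.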

How the data were processed

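Poly(A) mRNA libraries were made with a stranded kit and sequenced as paired-end reads on an Illumina HiSeq platform. The labels name a mirVana kit for RNA extraction and the methods name TRIzol. The submitters' processing notes name HISAT2 and the build OryCun2.0. The counting program and its strand setting are not given in the sources used here, so reads of overlapping antisense genes may not have been told apart. The authors deposited raw read counts per gene for each library, without normalization or pooling. Of 2992 LOC identifiers, 542 were given a symbol from the RefSeq table of mOryCun1.1, and no coordinates were used. Spreadsheet dates replace 25 gene names (0.188% of counts).

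Libraries were grouped by the treatment in the labels. The tests were run in R 4.3.3 using edgeR 4.0.16 (TMM, filterByExpr with a minimum count of 10, glmQLFit and glmQLFTest at defaults), limma 3.58.1 and DESeq2 1.42.0, all two-sided and adjusted by Benjamini-Hochberg, across 14003 genes in edgeR and limma and across the genes left by its own independent filtering in DESeq2. TMM factors ran from 0.923 to 1.06 and the biological coefficient of variation was 43.0%. The standard error of a log2 fold change was its size divided by the square root of the F statistic. Single values were compared by exact permutation of log2(CPM + 1). Log2 CPM for correlations used a prior count of 1. Scripts were tested on simulated data. The methods give 3 rabbits per group. The labels do not say how libraries map to rabbits, and p-values measure the spread between these libraries.

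The members, lists and tests were chosen with earlier results of these data known. Named are all members, up to 3 genes per related list with the smallest unadjusted p under 0.05, SOX10 and ERBB3, and the 3 genes most like S100B, NCAM1, L1CAM and SLITRK3. Genes with a LOC number or date in place of a name were left out of the last choice. A few genes of the lists are not reported here. Alternatives were DESeq2, limma-voom, glmQLFit with legacy = FALSE, library size only, upper-quartile factors, library sizes without muscle and gland markers, other filters, a fold threshold of 1, a pseudocount of 0.5, a replicate block and each library left out.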

Additional observations from a re-analysis of the deposited data

How the results depend on the processing

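Against 0 genes called at the adjusted p with edgeR, DESeq2 called 399, and 256 with FNI replicate 3 left out as well, an alternative chosen after seeing the data. With each library left out in turn edgeR called 0 to 40 genes (40 without FNI+I-125 replicate 3). Genes at an unadjusted p under 0.05 numbered 1392 to 2231 with a library left out, against 2375 in all. For the members the count at the unadjusted p was 1 to 5 with a library left out and 3 in all. It was 3 with DESeq2, limma-voom, legacy = FALSE, library size only, upper-quartile factors, library sizes without muscle and gland markers and no filter. With at least 10 counts in every library it was 2, since SLITRK3 was then not tested. A fold threshold of 1 in place of 1.5 left 0 genes called. With limma-voom GFAP took the place of S100B. The log2 fold change of CDH2 turned to -0.33 without FNI+I-125 replicate 3 and was 0.64 without FNI+I-125 replicate 1. It was the one reversal among the members, SOX10, ERBB3 and the genes named for the smallest p of their list. The other named genes were not followed through these settings. The 3 members without overlap were the same on all 4 scales tried, and a pseudocount of 0.5 left the permutation p of each of the 10 members as it was. Deviations of same-numbered libraries from their group means had correlations of 0.05, -0.25 and -0.20. Deviations from a mean of 3 libraries depend on each other, so these values cannot show whether the replicate numbers pair the libraries. With a replicate block, 2220 genes and 3 members (FABP7, CADM4 and SLITRK3) passed the unadjusted p, and 0 genes passed the adjusted p. S100B, PMP2, DES, CDH18, SLITRK2, UGT8 and FA2H missed the unadjusted threshold there. Depth limits SLITRK3, with 109 counts in all for FNI and 16 for FNI+I-125.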
